A study of Macaca mulatta with 5 samples.

Results

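Heat shock chaperones are proteins that fold, refold and deliver other proteins, and 9 of their genes were followed here across the cells of the rhesus macaque claustrum. They were HSPA8, HSPH1, DNAJA1 and DNAJB1 of the cytosolic HSP70 machine, HSP90AA1 and HSP90AB1 of the cytosolic HSP90 machine, HSPA5 of the endoplasmic reticulum, and HSPD1 and HSPE1 of the mitochondrion. The genes were taken by symbol from the feature tables, which list 21761 gene identifiers. Of the 9 symbols, 7 were found in all 5 tables, and HSP90AB1 and HSPE1 were not found as symbols. The 7 genes found are the ones described as chaperones below, and identifiers that may stand for the other 2 are taken up at the end.

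The study profiled single nuclei from frozen claustrum, a thin sheet of neurons between insular cortex and striatum, of 2 healthy male rhesus macaques that received no treatment. The 18-month-old animal gave 3 libraries and the 17-month-old animal gave 2 libraries, all made with droplet 3' chemistry that counts unique molecular identifiers (UMIs), one per captured RNA molecule. Libraries of an animal are repeat measurements on that animal. Each age is therefore 1 animal, and the p-values below cover only how far repeat libraries vary, with no spread between animals in them.

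As background, HSP70 proteins bind exposed hydrophobic stretches of unfolded proteins in a cycle of ATP hydrolysis and nucleotide exchange. J-domain proteins hand them clients and speed hydrolysis, and HSP110 proteins speed the exchange. Many clients then pass to HSP90, which finishes the maturation of kinases and steroid hormone receptors. Heat, oxidative stress and other protein-damaging conditions raise part of this set through the transcription factor HSF1, whereas HSPA8 and much of the HSP90 pool are made in unstressed cells. Nuclei carry only part of a cell's RNA, so the levels below are those of nuclear and nucleus-attached transcripts.

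The 5 libraries held 40005 barcodes and between 47512670 and 70896967 UMIs each, and 37053 nuclei were kept after filters on genes, mitochondrial reads and likely doublets. Nuclei were clustered on genes that exclude the chaperones, and clusters were named from marker genes as excitatory-like, inhibitory-like, striatal projection-like, oligodendrocyte-like, oligodendrocyte precursor-like, astrocyte-like, microglia-like and endothelial-like. The ending is left out below. These 8 classes held 8736 excitatory, 2681 inhibitory and 1849 striatal projection neurons, 337 endothelial nuclei, 14514 oligodendrocytes, 2055 oligodendrocyte precursors, 1199 astrocytes and 2829 microglia. Levels are given as CPM, the UMIs of a gene divided by all UMIs of the class in that library and scaled to a total of 1000000. Marker sums followed the names: the 9 endothelial markers summed to between 5729 and 8078 CPM in endothelial nuclei of the 5 libraries, and the 10 microglial markers to between 3908 and 5333 CPM in microglia. Striatal projection neurons are a cell type of the neighbouring striatum. Pairs of libraries shared between 11 and 39 barcode sequences.

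HSPA8 (ENSMMUG00000004696), the constitutive cytosolic HSP70, was highest in endothelial nuclei and lowest in neurons. Endothelial nuclei gave 398, 252 and 355 CPM in the 18-month animal, against 216 and 105 CPM in the 17-month animal, with 1 value per library here and in all such lists below. Excitatory neurons gave 41.0, 38.7 and 34.5 CPM in the 18-month animal, against 36.8 and 29.4 CPM in the 17-month animal. Every endothelial value lay above every excitatory value, and endothelial nuclei were the highest of the 8 classes in 5 of 5 libraries. Between these ends the means over 5 libraries were 131 ± 37.6 CPM in microglia, 111 ± 27.6 in oligodendrocytes, 86.7 ± 26.5 in astrocytes, 76.4 ± 14.1 in oligodendrocyte precursors, 49.6 ± 15.8 in striatal projection neurons and 48.5 ± 9.05 in inhibitory neurons (SD). Each class overlapped its neighbour in this order in the range of its libraries.

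HSPH1 (ENSMMUG00000013707), an HSP110 protein that exchanges the nucleotide of HSP70, had a different order. Striatal projection neurons gave 156, 140 and 129 CPM in the 18-month animal, against 148 and 127 CPM in the 17-month animal, and were the highest class in 5 of 5 libraries. Excitatory neurons gave 122, 123 and 105 CPM in the 18-month animal, against 97.4 and 90.6 CPM in the 17-month animal. Astrocytes had the lowest mean HSPH1, 59.9 ± 23.7 CPM, and microglia the second highest, 114 ± 26.7 CPM (SD, n = 5 each). The ratio of HSPH1 to HSPA8 within a library averaged 3.04 ± 0.896 in striatal projection neurons, 2.985 ± 0.200 in excitatory neurons, 1.62 ± 0.265 in inhibitory neurons, 0.318 ± 0.0422 in endothelial nuclei and 0.783 ± 0.0420 in oligodendrocytes (SD, n = 5 each). The 3' counts make this ratio comparable between classes, not a ratio of molecules of the 2 genes.

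The 2 J-domain partners of HSP70 differed in abundance and shared the endothelial maximum. DNAJA1 (ENSMMUG00000007740) averaged 139 ± 55.2 CPM in endothelial nuclei, 88.5 ± 13.3 CPM in microglia and 47.1 ± 4.58 CPM in excitatory neurons (SD, n = 5 each). DNAJB1 (ENSMMUG00000017906), the strongly heat-inducible one of the pair, was sparse everywhere. Endothelial nuclei gave 40.2, 28.0 and 45.2 CPM in the 18-month animal, against 34.6 and 5.23 CPM in the 17-month animal, from 9, 3, 7, 25 and 1 UMIs in that order. Striatal projection neurons, the lowest class for DNAJB1 in 5 of 5 libraries, gave between 1.22 and 4.69 CPM from 2 to 26 UMIs. The second 17-month library had 1 endothelial DNAJB1 UMI from 43 nuclei, so its value there sets no level.

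HSP90AA1 (ENSMMUG00000054990), the inducible cytosolic HSP90, followed HSPA8. Endothelial nuclei gave 648, 551 and 542 CPM in the 18-month animal, against 324 and 209 CPM in the 17-month animal, the highest class in 4 of 5 libraries. Oligodendrocytes came next with 357, 261 and 308 CPM in the 18-month animal, against 232 and 215 CPM in the 17-month animal, level with microglia at 272 ± 54.3 CPM (SD, n = 5). Excitatory neurons were the lowest class for HSP90AA1 in 5 of 5 libraries, at 106, 93.4 and 90.7 CPM in the 18-month animal, against 98.1 and 84.0 CPM in the 17-month animal. The ratio of HSP90AA1 to HSPA8 stayed between 2.12 and 2.63 as a class mean in neurons and glia and was 1.77 ± 0.307 in endothelial nuclei (SD, n = 5).

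Among the 8 classes, the organelle chaperones also had their highest means in endothelial nuclei. HSPA5 (ENSMMUG00000005217), the endoplasmic reticulum HSP70 known as BiP, averaged 88.7 ± 36.2 CPM in endothelial nuclei, 54.7 ± 15.2 in microglia, 47.9 ± 14.8 in oligodendrocyte precursors, 31.0 ± 11.8 in inhibitory neurons and 17.1 ± 4.37 in excitatory neurons (SD, n = 5 each). Excitatory neurons were the lowest class for HSPA5 in 5 of 5 libraries. HSPD1 (ENSMMUG00000010489), the mitochondrial chaperonin HSP60, averaged 56.8 ± 23.98 CPM in endothelial nuclei, 45.5 ± 3.43 in astrocytes, 37.9 ± 4.71 in inhibitory neurons, 25.7 ± 1.08 in excitatory neurons and 22.6 ± 1.61 in striatal projection neurons (SD, n = 5 each). The endothelial values of HSPD1 ran from 32.3 to 93.4 CPM, and endothelial nuclei were the highest of the 8 classes in 3 of 5 libraries and astrocytes in the other 2. A mural- or fibroblast-like group outside these classes, too few for a sum in 1 library, averaged 64.2 ± 30.6 CPM of HSPD1 and 183 ± 89.9 CPM of HSPA8 (SD, n = 4 libraries).

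**Figure D1:**
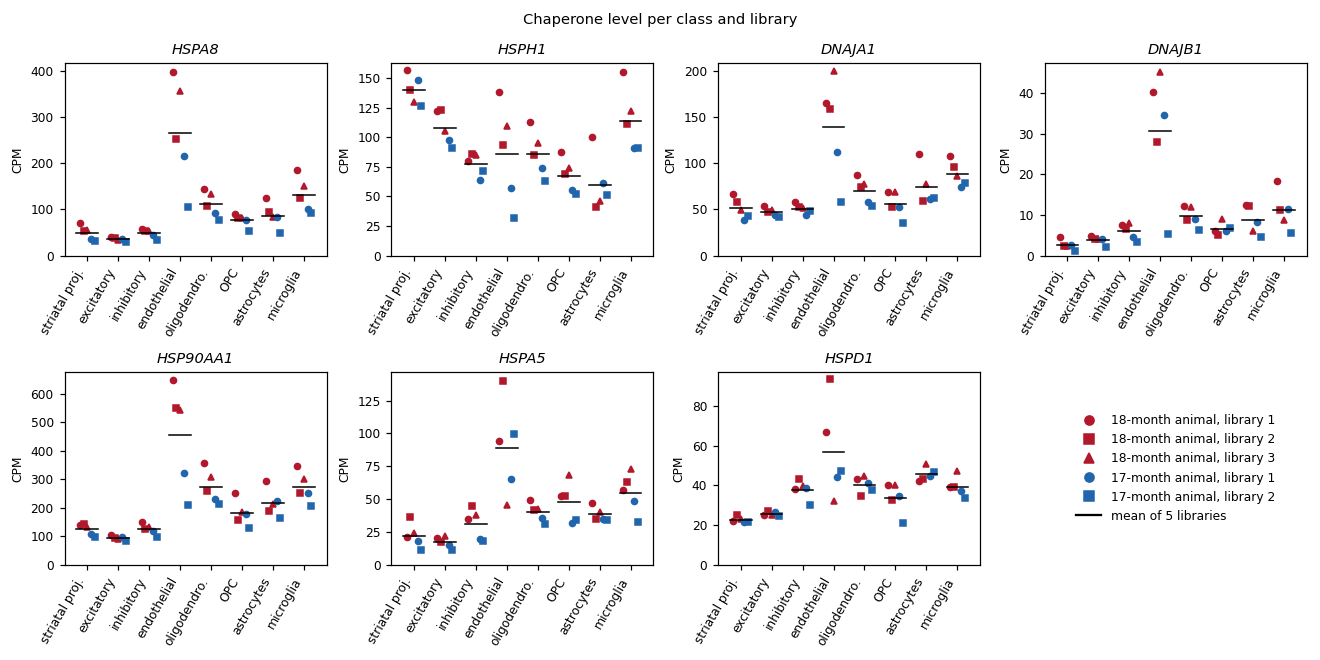
CPM of the 7 chaperones (vertical axes, linear, from 0) in the 8 classes, with 1 point per library and the mean of 5 libraries as a bar. HSPH1 has its highest mean in striatal projection neurons and the other 6 genes have theirs in endothelial nuclei.

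Between neurons and glia, 6 of the 7 chaperones were lower in neurons and HSPH1 was higher. Neurons averaged 44.7 ± 9.38 CPM of HSPA8 and glia 101 ± 25.3 CPM, and neurons averaged 115 ± 14.4 CPM of HSP90AA1 and glia 236 ± 50.5 CPM (SD, n = 5 libraries each, mean of 3 neuron classes and of 4 glial classes). For HSPH1 the means were 108 ± 9.52 CPM in neurons and 81.9 ± 19.4 CPM in glia. Each of these differences had the same direction within 5 of 5 libraries. Single classes did not all follow the HSPH1 average. Microglia (114 ± 26.7 CPM) had a higher mean than excitatory neurons (108 ± 14.5) and inhibitory neurons (77.2 ± 9.27). Oligodendrocytes (86.2 ± 19.2 CPM) also had a higher mean than inhibitory neurons (SD, n = 5 each). In an edgeR quasi-likelihood test over 10072 genes with library as a block, the log2 fold change was -0.95 ± 0.06 for HSPA8 (SE, adjusted p = 5.32e-19), -0.82 ± 0.05 for HSP90AA1 (adjusted p = 8.90e-18), -0.98 ± 0.12 for DNAJB1 (adjusted p = 7.84e-10), -0.76 ± 0.08 for HSPA5 (adjusted p = 2.26e-10) and 0.61 ± 0.06 for HSPH1 (adjusted p = 2.89e-12). DNAJA1 and HSPD1 differed less, by -0.31 and -0.29 (adjusted p = 1.49e-06 and 1.08e-05, edgeR), and HSPD1 no longer passed with nuclei thinned to 1000 UMIs (-0.14, adjusted p = 0.425).

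The call used for comparisons of cell types needs an adjusted p below 0.05 together with a change of 1 or more on the log2 scale, in either direction. By it 0 of 7 chaperones were called between neurons and glia by edgeR and 0 by DESeq2, where 14.1% of all genes tested were called higher and 10.1% lower. Without the fold rule the 6 lower and 1 higher stand beside 36.8% of all genes lower and 41.1% higher. The median log2 fold change was -0.76 over the 7 chaperones and 0.03 over all genes tested. TMM scaling set the median of all genes 0.19 above its value on library totals, and on library totals 3 chaperones passed the fold rule. Depth moved with these groups: mean UMIs per nucleus were 17677 in excitatory neurons, 14121 in striatal projection neurons and 9416 in inhibitory neurons, against 2553 in oligodendrocytes and 2121 in microglia. After thinning nuclei to 1000 UMIs each, the log2 fold change was -0.94 for HSPA8, -0.76 for HSP90AA1 and 0.51 for HSPH1.

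Among neurons, HSPH1 was higher and HSPA5 lower in excitatory than in inhibitory types. Excitatory neurons averaged 108 ± 14.5 CPM of HSPH1 and inhibitory neurons 77.2 ± 9.27 CPM (SD, n = 5 each), a log2 fold change of 0.58 ± 0.09 (SE, adjusted p = 1.68e-06, edgeR). For HSPA5, excitatory neurons averaged 17.1 ± 4.37 CPM of HSPA5 and inhibitory neurons 31.0 ± 11.8 CPM, a log2 fold change of -0.74 ± 0.12 (adjusted p = 3.22e-06). HSPD1, DNAJB1, HSPA8 and HSP90AA1 were also lower in excitatory neurons, by -0.47, -0.52, -0.31 and -0.29, and DNAJA1 did not pass (-0.01, adjusted p = 0.915). At an adjusted p under 0.05 this made 5 lower and 1 higher, with 24.2% of all genes lower and 28.9% higher. With nuclei thinned to 1000 UMIs, HSPD1 (-0.45), DNAJB1 (-0.31), HSPA8 (-0.12) and HSP90AA1 (-0.26) no longer passed. With the fold rule 0 of 7 were called by edgeR or DESeq2, against 6.74% of all genes higher and 6.11% lower.

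Striatal projection neurons averaged 140 ± 12.5 CPM of HSPH1 and the mean of excitatory and inhibitory neurons was 92.4 ± 11.02 CPM (SD, n = 5 each), a log2 fold change of 0.83 ± 0.08 (SE, adjusted p = 9.88e-12, edgeR). HSPA8, HSP90AA1 and DNAJA1 were higher in striatal projection neurons by 0.47, 0.42 and 0.29, and DNAJB1 and HSPD1 were lower by -0.64 and -0.23, all at adjusted p under 0.05. TMM raised the median of all genes by 0.22 over library totals in this comparison, and on library totals DNAJA1 no longer passed (0.06, adjusted p = 0.526), while HSPA8 and HSP90AA1 were 0.24 and 0.20 (adjusted p = 0.0150 and 0.0411). By CPM, DNAJA1 was higher in striatal projection neurons within 2 of 5 libraries only. With nuclei thinned to 1000 UMIs, HSPD1 had the other sign (0.17, adjusted p = 0.670) and HSPA8 (0.33), DNAJA1 (0.09) and DNAJB1 (-0.46) no longer passed, while HSPH1 (0.95) and HSP90AA1 (0.48) did. With the fold rule 0 of 7 were called by edgeR or DESeq2, against 8.12% of all genes higher and 11.2% lower, and without it 4 rose and 2 fell, against 31.4% and 29.8%.

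Within excitatory neurons, claustrum-like nuclei, named from claustrum markers and 5126 in number, were set against the other named excitatory nuclei, 889 in number, of which 569 were layer 6 corticothalamic-like. The 2721 excitatory nuclei of unnamed clusters were left out. HSPH1 was found in 77.9 ± 8.33% of claustrum-like, 72.4 ± 8.47% of unnamed and 60.9 ± 11.7% of the other named excitatory nuclei (SD, n = 5 each). With nuclei thinned to 1000 UMIs these shares were 9.68 ± 2.25%, 7.78 ± 1.33% and 7.88 ± 1.02%. HSPH1 was 134, 139 and 116 CPM in claustrum-like nuclei of the 18-month animal, against 106 and 98.5 CPM in those of the 17-month animal. The other named excitatory nuclei gave 93.5, 98.2 and 85.5 CPM of HSPH1 in the 18-month animal, against 77.7 and 64.7 CPM in the 17-month animal. HSPH1 was higher in claustrum-like nuclei within 5 of 5 libraries, with a log2 fold change of 0.50 ± 0.06 (SE, adjusted p = 4.53e-06, edgeR). HSPA5 was lower within 5 of 5 libraries, at 17.5 ± 4.23 CPM in claustrum-like nuclei and 22.3 ± 5.97 CPM in the others (SD, n = 5 each), a log2 fold change of -0.37 ± 0.11 (adjusted p = 0.0142). The other 5 chaperones did not pass, with log2 fold changes between -0.05 and 0.14. With nuclei thinned to 1000 UMIs neither HSPH1 (0.295, adjusted p = 0.324) nor HSPA5 (-0.79, adjusted p = 0.154) passed, and HSPA5 also missed the threshold in DESeq2. At an adjusted p under 0.05 that is 1 of 7 higher and 1 of 7 lower, beside 19.4% and 17.4% of all 11192 genes tested, and 0 of 7 passed the fold rule by edgeR or DESeq2, beside 5.06% and 5.61%.

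The smaller neuron types filled in the same picture. HSPH1 averaged 77.2 ± 10.8 CPM in layer 6 corticothalamic-like, 92.8 ± 25.1 in layer 6b-like, 75.3 ± 6.401 in SST-like and 73.3 ± 12.2 in VIP-like nuclei (SD, n = 5 each), and 79.7 ± 18.3 CPM in PVALB-like nuclei (n = 4 libraries). Inhibitory neurons of the medial ganglionic eminence type (SST-like and PVALB-like) were compared with those of the caudal type, for which VIP-like was the one group named. They averaged 78.8 ± 10.98 CPM of HSPH1 and VIP-like nuclei 73.3 ± 12.2 CPM (SD, n = 5 each), a log2 fold change of 0.10 ± 0.12 (adjusted p = 0.603, edgeR). Of the 6 chaperones tested there, 0 were called by edgeR or DESeq2. Beside them, 3.79% of 7909 genes were called higher, 3.36% lower and 7.16% in either direction. By unadjusted p under 0.05 (edgeR) there was 1, HSP90AA1 at -0.20, and no share of all genes was counted at that limit. DNAJB1 was too sparse to be tested in that comparison.

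**Figure D2:**
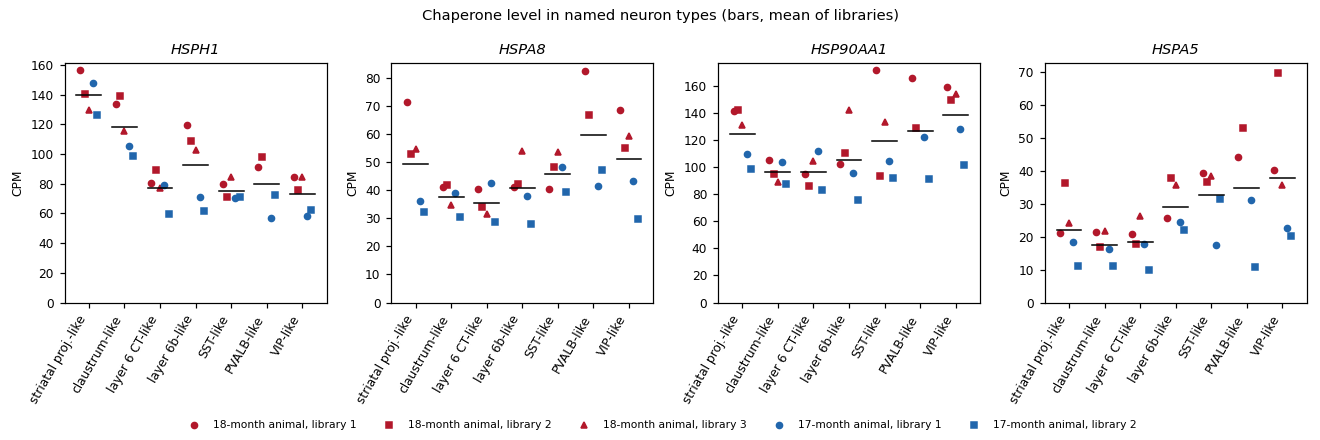
CPM of HSPH1, HSPA8, HSP90AA1 and HSPA5 (vertical axes, linear, from 0) in named neuron types, with 1 point per library and the mean as a bar. Among the types shown, HSPH1 is highest in striatal projection-like and claustrum-like nuclei, whereas HSPA5 has its highest means in the inhibitory types. Excitatory and inhibitory nuclei of unnamed clusters are not shown.

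HSPA8 and DNAJB1 of the HSP70 machine were higher in endothelial nuclei than in glia at the fold rule. Endothelial nuclei averaged 265 ± 116 CPM of HSPA8 and glia averaged 101 ± 25.3 CPM (SD, n = 5 each), a log2 fold change of 1.14 ± 0.12 (SE, adjusted p = 4.51e-11, edgeR), higher within 5 of 5 libraries. DNAJB1 averaged 30.7 ± 15.6 CPM in endothelial nuclei and 9.02 ± 2.30 CPM in glia, a log2 fold change of 1.60 ± 0.25 (adjusted p = 9.00e-07), higher within 4 of 5 libraries. These 2 of 7 were called higher, beside 10.7% of all genes, and 0 were called lower, beside 9.63%. HSPA5, DNAJA1 and HSP90AA1 were higher by 0.69, 0.67 and 0.63 (adjusted p = 0.0105, 4.78e-05 and 5.59e-07), under the fold rule. Without that rule 5 of 7 were higher and 0 lower, beside 17.4% and 24.3% of all genes. HSPH1 and HSPD1 did not pass, at -0.24 and 0.14.

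The endothelial class was small, with 55, 36 and 37 nuclei in the 18-month animal, against 166 and 43 nuclei in the 17-month animal. In the first 17-month library its nuclei also carried 3088 CPM of the 8 astrocyte markers, against 241 to 970 CPM in the other libraries. HSPA8 and DNAJB1 were both still called without that library, and also when each of the other libraries in turn was left out. With nuclei thinned to 1000 UMIs each, HSPA8 was called (1.03, adjusted p = 1.36e-06, edgeR), DNAJB1 was not (1.41, adjusted p = 0.0610), and DNAJA1 no longer passed without the fold rule (0.46, adjusted p = 0.146). Thinned in this way, DNAJB1 was found in 2.30 ± 1.37% of endothelial nuclei (SD, n = 5) and 5.05 ± 3.35% of mural- or fibroblast-like nuclei (n = 4 libraries). Without thinning these shares were 11.04 ± 6.86% and 6.22 ± 3.94%. TMM lowered the median of all genes by 0.24 relative to library totals in this comparison.

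Between the glial classes no chaperone reached the fold rule. Oligodendrocytes were higher than the other glia in HSP90AA1, HSPA8 and HSPH1, by 0.43 ± 0.08, 0.32 ± 0.08 and 0.26 ± 0.09 (log2, SE, adjusted p = 4.40e-06, 3.94e-04 and 0.0092, edgeR), beside 29.9% of all genes higher, and 0 were lower, beside 27.6%. Microglia were higher in HSPH1, HSPA8 and DNAJA1, by 0.50, 0.33 and 0.24, beside 26.9% of all genes higher and 32% lower. Oligodendrocyte precursors were lower in DNAJB1, HSPA8, HSP90AA1 and DNAJA1, by -0.51, -0.38, -0.37 and -0.32, beside 23.8% of all genes lower and 25% higher. Astrocytes were lower in HSPH1 and HSPA8, by -0.59 and -0.27, beside 26.6% of all genes lower and 23.5% higher. DESeq2 did not pass HSPH1 in oligodendrocytes, HSPA8 in astrocytes or DNAJB1 in oligodendrocyte precursors. On library totals HSPH1 in oligodendrocytes (0.15, adjusted p = 0.155) and HSPA8 in astrocytes (-0.24, adjusted p = 0.0551) no longer passed, and HSPH1 was higher in oligodendrocytes within 3 of 5 libraries. TMM moved the median of all genes relative to library totals by 0.11 in oligodendrocytes, -0.19 in microglia and 0.12 in oligodendrocyte precursors. With the fold rule 0 of 7 were called in each of these 4 comparisons by edgeR and by DESeq2, beside 19.3%, 24.9%, 16.4% and 19% of all genes in either direction for oligodendrocytes, microglia, oligodendrocyte precursors and astrocytes. Of all genes, 8.11% were called higher and 11.2% lower in oligodendrocytes, 10.9% and 14% in microglia, 9.91% and 6.49% in oligodendrocyte precursors, and 11.4% and 7.65% in astrocytes.

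**Figure D3:**
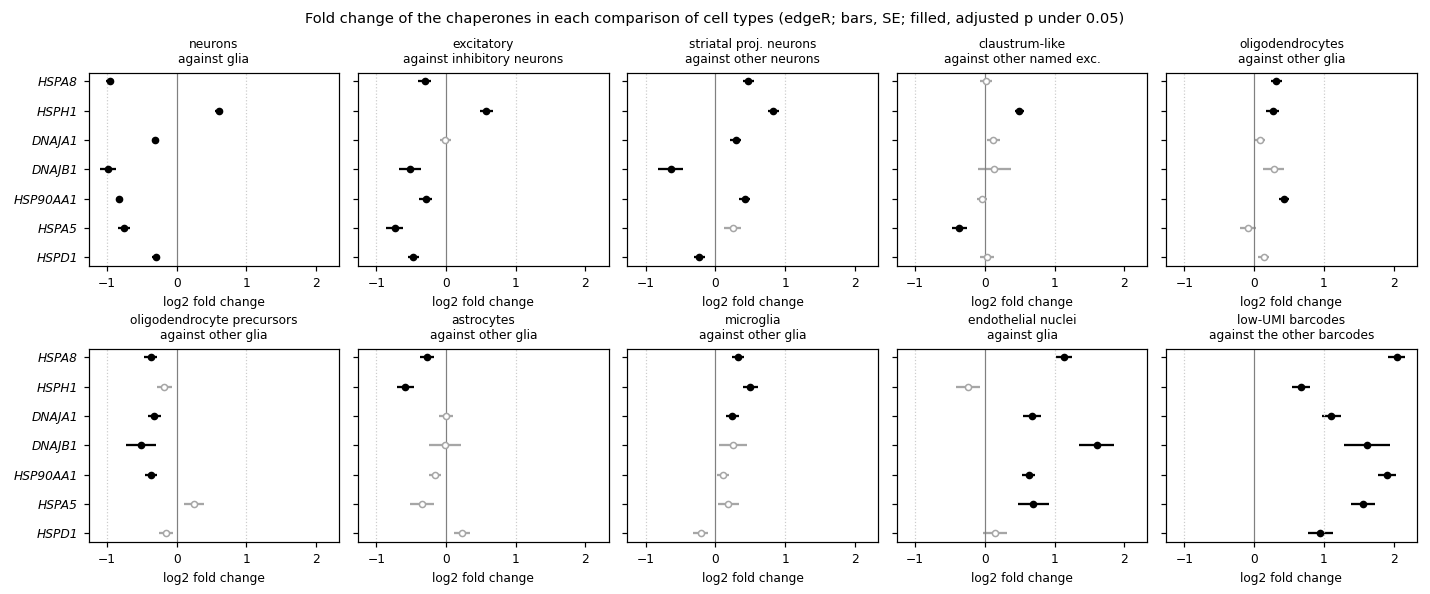
Log2 fold change from edgeR (horizontal axes) with its standard error for each chaperone in 10 comparisons, filled where the adjusted p is under 0.05, with dotted lines at the fold rule of 1. HSPA8 and DNAJB1 pass the fold rule in endothelial nuclei, and 5 chaperones pass it in barcodes under 1200 UMIs.

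Barcodes with fewer than 1200 UMIs were set apart as a check for stray RNA, since droplets without a nucleus can carry RNA from broken cells. They numbered 585, 371 and 621 in the 18-month animal, against 335 and 341 in the 17-month animal. For HSPA8, low-UMI barcodes reached 391, 237 and 480 CPM in the 18-month animal and 197 and 188 CPM in the 17-month animal. The other barcodes of the same libraries gave 67.5, 58.5 and 60.4 CPM of HSPA8 in the 18-month animal and 56.8 and 45.5 CPM in the 17-month animal. For HSP90AA1, low-UMI barcodes reached 885, 589 and 994 CPM in the 18-month animal and 532 and 389 CPM in the 17-month animal, against between 124 and 165 CPM in the other barcodes. The 2 groups of barcodes did not overlap for either gene. The log2 fold change was 2.04 ± 0.13 for HSPA8 (SE, adjusted p = 2.98e-56, edgeR), 1.91 ± 0.13 for HSP90AA1 (adjusted p = 5.17e-48), 1.62 ± 0.33 for DNAJB1 (adjusted p = 7.46e-06), 1.56 ± 0.17 for HSPA5 (adjusted p = 4.77e-18) and 1.11 ± 0.14 for DNAJA1 (adjusted p = 1.49e-13).

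These 5 of 7 were called higher by edgeR, beside 9.42% of 16221 genes, and DESeq2 called 6. HSPD1 and HSPH1 were higher by 0.95 ± 0.18 and 0.68 ± 0.13 (adjusted p = 1.44e-06 and 1.78e-06, edgeR), under the fold rule. The median was 1.56 over the 7 chaperones and -0.13 over all genes, and TMM lowered the median of all genes by 0.27 relative to library totals. The other barcodes are pooled by UMIs, so deep neurons weigh most in them. Over 12 alternatives, 1 with the 8 classes weighted equally, the fold ran from 1.45 to 2.32 for HSPA8 and 1.52 to 2.18 for HSP90AA1. It ran from 0.98 to 1.89 for DNAJB1 and 0.88 to 1.39 for DNAJA1, which lost their calls in 1 and 4 of them. The part of cell makeup in these folds was not tested. Low-UMI barcodes held between 0.024% and 0.039% mitochondrial UMIs on average and the other barcodes between 0.005% and 0.009%. The 7 oligodendrocyte markers summed to between 2374 and 5805 CPM in low-UMI barcodes, against 9378 to 11637 CPM in oligodendrocytes and 157 to 266 CPM in excitatory neurons. The 8 excitatory markers summed to between 811 and 1858 CPM in low-UMI barcodes, against 1040 to 1160 CPM in excitatory neurons and 353 to 442 CPM in oligodendrocytes. Among the low-UMI barcodes kept as nuclei, unnamed clusters held 318, 249 and 291 in the 18-month animal, against 218 and 183 in the 17-month animal. Another 95, 71 and 29 in the 18-month animal, against 32 and 127 in the 17-month animal, were counted among the oligodendrocytes. Microglia held 50, 18 and 7 in the 18-month animal, against 16 and 21 in the 17-month animal. These barcodes stand on both sides where low-UMI barcodes are set beside oligodendrocytes or microglia.

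Counted per barcode, without scaling for depth, the contrast turned round. Low-UMI barcodes were picked for few UMIs, so the direction here is partly set by that choice. A low-UMI barcode carried 0.249 ± 0.0660 UMIs of HSPA8 on average, against 1.05 ± 0.489 in an endothelial nucleus, 0.709 ± 0.262 in a striatal projection neuron, 0.640 ± 0.172 in an excitatory neuron, 0.284 ± 0.0794 in an oligodendrocyte and 0.276 ± 0.0752 in a microglial nucleus (SD, n = 5 libraries each). For HSP90AA1 a low-UMI barcode carried 0.572 ± 0.131 UMIs and a microglial nucleus 0.574 ± 0.107, and microglia were above the low-UMI barcodes in 2 of 5 libraries and below them in 3 of 5. Oligodendrocytes carried 0.702 ± 0.163 UMIs of HSP90AA1, astrocytes 0.858 ± 0.191, and excitatory neurons 1.67 ± 0.412. The low-UMI barcodes had 883 UMIs on average over all genes, against 2121 in microglia and 2553 in oligodendrocytes.

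The shares of barcodes with at least 1 UMI were also close. HSP90AA1 was found in 40.8 ± 8.17% of low-UMI barcodes, 41.9 ± 5.35% of microglia and 48.1 ± 7.53% of oligodendrocytes, and HSPA8 in 21.1 ± 4.14%, 22.9 ± 5.58% and 24.1 ± 5.78% (SD, n = 5 libraries each; mean depths as above). By UMIs per barcode, HSPA8 was above the low-UMI barcodes within 5 of 5 libraries in microglia and in oligodendrocytes, by ratios of means of 1.11 and 1.14. HSP90AA1 in oligodendrocytes was above them within 4 of 5 libraries. The part of stray RNA, and of the barcodes counted on both sides, in the glial levels was not tested.

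For HSPH1, neurons carried more UMIs per barcode than low-UMI barcodes, in counts not scaled for depth. Neurons were the deepest classes and low-UMI barcodes were picked for few UMIs, so this direction is partly set by that choice. A low-UMI barcode carried 0.170 ± 0.0611 UMIs of HSPH1, against 2.15 ± 0.648 in a claustrum-like nucleus, 1.97 ± 0.210 in a striatal projection neuron, 1.92 ± 0.563 in an excitatory neuron, 0.737 ± 0.202 in an inhibitory neuron and 0.220 ± 0.0524 in an oligodendrocyte (SD, n = 5 each). The ratio of the means to that of low-UMI barcodes was 11.6 for HSPH1 in striatal projection neurons and 11.3 in excitatory neurons, and 1.29 in oligodendrocytes. For DNAJA1 and HSPD1 this ratio was 6.95 and 7.69 in excitatory neurons, against 2.57 for HSPA8 and 2.92 for HSP90AA1. Per barcode, the neurons were above the low-UMI barcodes in 5 of 5 libraries for all 7 genes but DNAJB1. By CPM, HSPH1 averaged 204 ± 98.5 in low-UMI barcodes and 108 ± 14.5 in excitatory neurons (SD, n = 5 each). Excitatory neurons were below the low-UMI barcodes in HSPH1 CPM within 5 of 5 libraries, and striatal projection neurons within 3 of 5. In nuclei thinned to 1000 UMIs each, HSPH1 was found in 13.95 ± 1.51% of striatal projection neurons, 8.91 ± 1.64% of excitatory neurons and 7.61 ± 1.20% of inhibitory neurons. It was found in 8.71 ± 1.79% of oligodendrocytes, so at equal depth excitatory neurons and oligodendrocytes differed by less than the spread between libraries. Thinned microglia, at 10.9 ± 1.78%, had a higher mean than excitatory and inhibitory neurons.

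**Figure D4:**
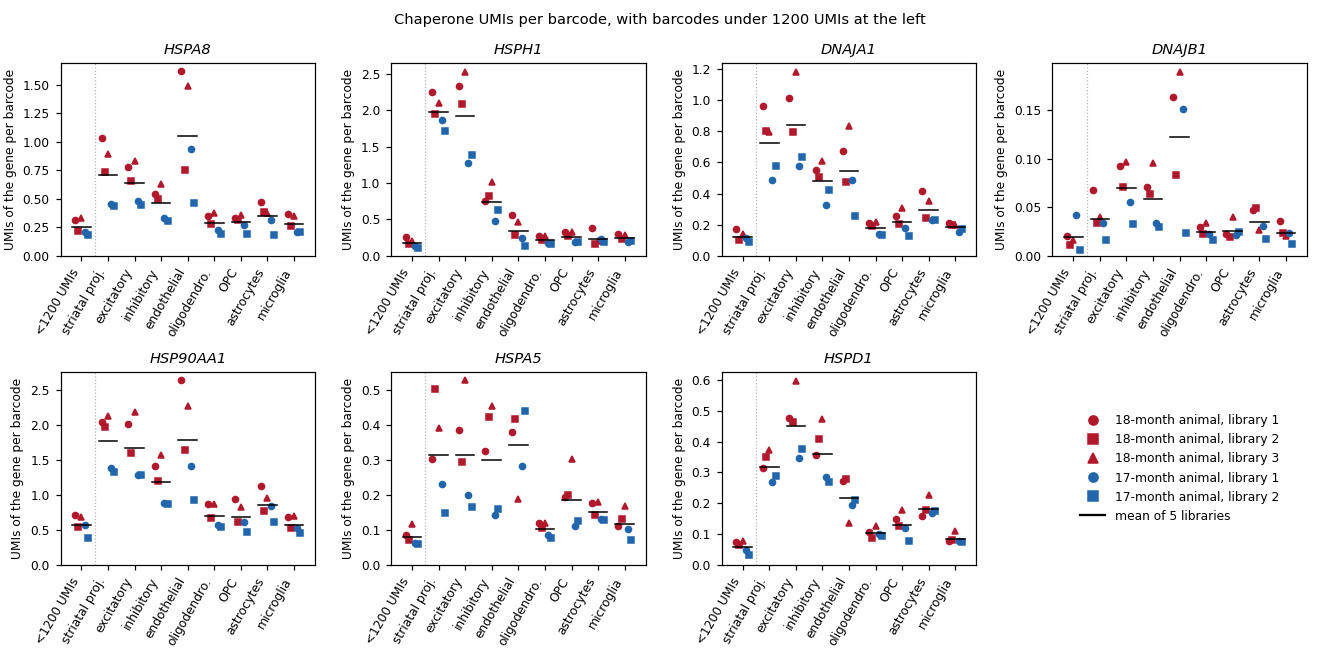
UMIs of each chaperone per barcode (vertical axes, linear, from 0) in barcodes under 1200 UMIs, at the left, and in nuclei of the 8 classes, with 1 point per library and the mean as a bar. For HSP90AA1, microglia (0.574) lie level with low-UMI barcodes (0.572), whereas for HSPH1 excitatory neurons (1.92) lie far above them (0.170). Counts are not scaled for depth, which is lowest in the low-UMI barcodes by choice.

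The 18-month animal had higher chaperone levels than the 17-month animal in several classes. HSPA5 in inhibitory neurons differed most among the called values, at 34.8, 44.5 and 38.2 CPM in the 18-month animal, against 19.4 and 17.9 CPM in the 17-month animal. The log2 fold change of HSPA5 there was 1.07 ± 0.14 (SE, adjusted p = 9.42e-06, edgeR, where the call needs only an adjusted p below 0.05), and it was 0.65 ± 0.15 in excitatory neurons, 0.78 ± 0.18 in oligodendrocyte precursors and 0.44 ± 0.11 in oligodendrocytes (adjusted p = 0.0367, 0.0088 and 0.0251). HSPA8 in striatal projection neurons gave 71.5, 52.8 and 54.9 CPM in the 18-month animal, against 36.1 and 32.4 CPM in the 17-month animal, a log2 fold change of 0.83 ± 0.16 (adjusted p = 0.0074). In oligodendrocytes HSPA8 gave 143, 107 and 134 CPM in the 18-month animal, against 92.6 and 77.1 CPM in the 17-month animal, a log2 fold change of 0.61 ± 0.14 (adjusted p = 0.0313). The libraries of the 2 animals did not overlap in any of these 3 sets of values.

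By class, 3 of 7 chaperones rose in excitatory neurons of the 18-month animal (HSPA5, HSPH1 and DNAJA1), beside 6.49% of all genes higher. In inhibitory neurons 4 of 7 rose (HSPA5, HSPA8, HSP90AA1 and HSPH1), beside 3.81%, and in striatal projection neurons 3 of 7 (HSPA8, DNAJA1 and HSP90AA1), beside 5.46%. In oligodendrocytes 4 of 7 rose (HSPA8, DNAJA1, HSPH1 and HSPA5), beside 7.34%, in oligodendrocyte precursors 2 of 7 (HSPA5 and HSPH1), beside 2.47%, and in microglia 1 of 7 (HSPA8, 0.63 ± 0.16, adjusted p = 0.0234, edgeR), beside 3.12%. Several of these calls were lost under alternatives. DESeq2 called 3 in excitatory neurons, 1 in inhibitory neurons, 2 in striatal projection neurons, 4 in oligodendrocytes, 0 in oligodendrocyte precursors and 0 in microglia. With nuclei thinned to 1000 UMIs edgeR called 0 in each of the 3 neuron classes, 4 in oligodendrocytes, 1 in oligodendrocyte precursors and 1 in microglia. With library number as a block it called 0 in oligodendrocyte precursors and 0 in microglia. None fell in these 6 classes, and HSPD1 and DNAJB1 were called in none of them. The median log2 fold change over the chaperones was 0.26 in excitatory neurons, 0.32 in inhibitory neurons, 0.56 in striatal projection neurons, 0.52 in oligodendrocytes, 0.39 in oligodendrocyte precursors and 0.49 in microglia, with medians over all genes between -0.0026 and 0.0066. The 18-month libraries all lay above the 17-month libraries for 6 of 7 chaperones in inhibitory neurons, 6 in microglia, 5 in oligodendrocytes, 5 in striatal projection neurons, 4 in oligodendrocyte precursors, 4 in endothelial nuclei, 3 in excitatory neurons and 1 in astrocytes. Of all genes tested, 18.0%, 20.4%, 22.3%, 18.1%, 17.8%, 13.8%, 18.5% and 15.9% did so in these classes, in the same order.

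Astrocytes and endothelial nuclei gave 0 calls among 6 chaperones tested each by edgeR and by DESeq2, with DNAJB1 too sparse to be tested. At an unadjusted p under 0.05 there was 1 in astrocytes (HSPA8) and there were 4 in endothelial nuclei (HSP90AA1, HSPH1, HSPA8 and DNAJA1). By adjusted p under 0.05, the limit of the calls, 3.4% of all genes were higher in astrocytes and 0.0788% in endothelial nuclei. No share of all genes was counted at the unadjusted limit. Endothelial HSPH1 gave 139, 93.4 and 110 CPM in the 18-month animal, against 56.7 and 31.4 CPM in the 17-month animal, with a log2 fold change of 1.27 ± 0.39 (adjusted p = 0.292, edgeR). The first 17-month endothelial sum was the one with 3088 CPM of the 8 astrocyte markers, and astrocytes averaged 59.9 CPM of HSPH1. The part of these markers' cells in the endothelial difference between animals was not tested. The animal effect did not differ by test between neurons and glia for any of the 7 chaperones by edgeR or DESeq2, beside 4.85% of 13965 genes in either direction. One of the 7, HSPA5, had an unadjusted p under 0.05 there, with a difference of 0.41 ± 0.18 (adjusted p = 0.199).

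Several other measures moved with the animal. Low-UMI barcodes of the 18-month libraries averaged 823 ± 209 CPM of HSP90AA1 (SD, n = 3) and those of the 17-month libraries 460 ± 101 CPM (n = 2). The low-UMI log2 ratio of mean CPM, 18-month over 17-month, was 1.22 for HSPD1, 1.15 for HSPH1, 0.99 for HSPA5 and 0.94 for HSPA8. It was 0.88 for DNAJA1, 0.84 for HSP90AA1 and -0.16 for DNAJB1. In nuclei of the 8 classes the same ratio of HSPD1 ran from -0.0016 in astrocytes to 0.49 in endothelial nuclei. Depth moved too: the median UMIs per excitatory nucleus were 17960, 16012 and 22518 in the 18-month animal, against 12110 and 14069 in the 17-month animal. In oligodendrocytes these medians overlapped, at 2323, 2430 and 2640 in the 18-month animal, against 2329 and 2373 in the 17-month animal. The 13 activity-regulated genes measured summed to 345, 342 and 302 CPM in excitatory neurons of the 18-month animal, against 293 and 263 CPM in those of the 17-month animal. These sums also did not overlap in inhibitory neurons, striatal projection neurons and endothelial nuclei, and they overlapped in oligodendrocytes, oligodendrocyte precursors, astrocytes and microglia. The part of stray RNA and activity in the animal difference was not tested, and animal, age and dissection cannot be told apart.

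The animal calls changed when libraries were left out. Without a 17-month library that animal has 1 library, which is then assumed to vary like those of the other animal. Without the first or the second 17-month library, or the first 18-month library, 0 chaperones were called in excitatory neurons. Without the second 17-month library 0 were called in striatal projection neurons, and without the third 18-month library 0 were called in oligodendrocyte precursors. Microglia had 3 calls without the second 18-month library and 0 without each of the other 4. Oligodendrocytes gave 1 call without each of 4 libraries and 5 without the second 18-month library, and inhibitory neurons between 2 and 4.

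**Figure D5:**
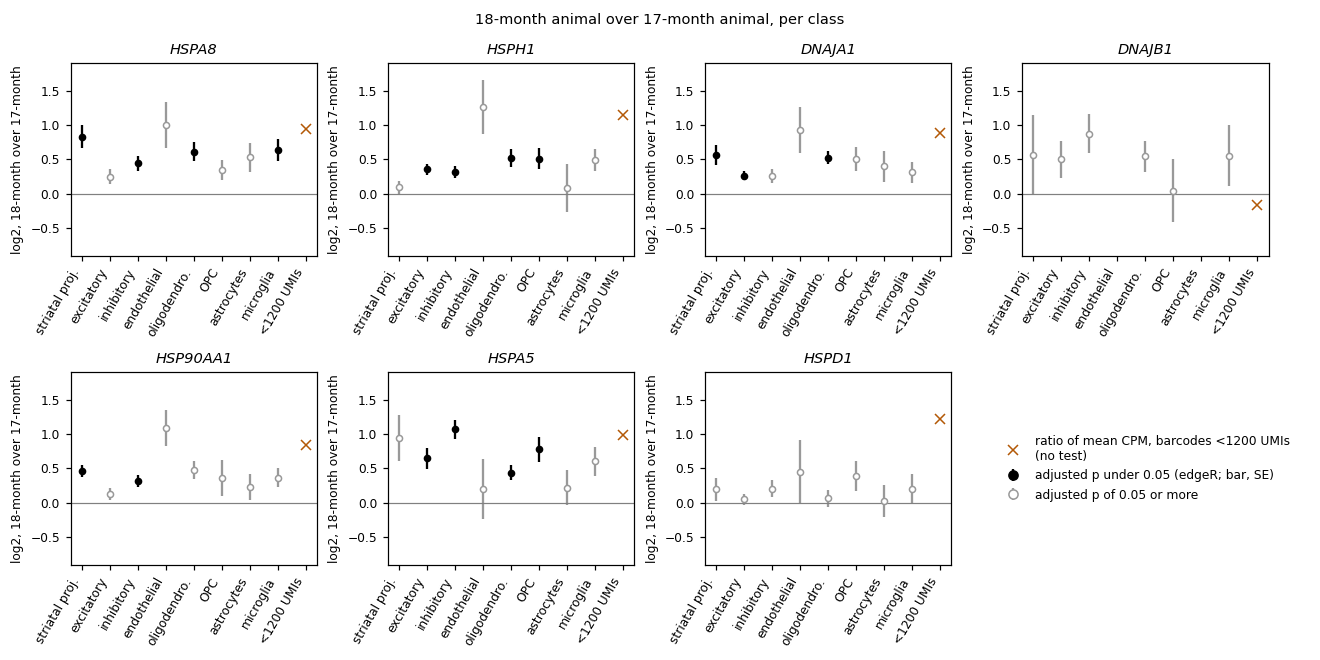
Log2 fold change of the 18-month over the 17-month animal (vertical axes) with its standard error in each class (edgeR), filled where the adjusted p is under 0.05, and the untested log2 ratio of mean CPM in barcodes under 1200 UMIs as a cross. The points of all classes tested lie above 0. The crosses of 6 chaperones also do, from HSP90AA1 (0.84) to HSPD1 (1.22), whereas that of DNAJB1 (-0.16) lies below.

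The wider chaperone lists were chosen with earlier results of these data known and are described by counts. Of the 16 other HSP70 family and nucleotide exchange genes tested, endothelial nuclei had 3 higher and 1 lower than glia at the fold rule, where 10.7% of all genes tested were higher and 9.63% lower. They included HSPA12B, an endothelial HSP70 relative (log2 fold change 7.86 ± 0.40, SE, adjusted p = 2.17e-20, edgeR), and BAG3, an HSP70 exchange factor of the stress response (2.35 ± 0.36, adjusted p = 7.84e-07). Of 17 genes of the endoplasmic reticulum unfolded protein response, 2 were higher in endothelial nuclei, with HERPUD1, a stress-induced membrane protein of that compartment, at 3.57 ± 0.13 (adjusted p = 5.42e-25). Of 5 small heat shock proteins 2 were higher and 1 lower: HSPB1 was higher by 2.61 ± 0.30 (adjusted p = 9.38e-10) and HSPB2 lower by -1.89 ± 0.51 (adjusted p = 0.0030). Of 29 J-domain genes 0 were higher and 2 lower, DNAJC6 by -1.29 and DNAJA3 by -1.08. In the same nuclei 4 of 10 activity-regulated genes were higher, DUSP1 by 4.2004, JUN by 1.66 and FOS by 1.55, and their part in the chaperone levels was not tested. Endothelial nuclei also had 1 of 5 heat shock factor genes and 1 of 14 chaperonin and prefoldin genes higher, and 0 of 17 genes of the HSP90 family and cochaperones called.

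Genes of the other lists also differed between neurons and glia. Among unfolded protein response genes, SDF2L1 was higher in neurons by 1.22 ± 0.06 (log2, SE, edgeR). CANX and CALR of that list were lower in neurons, by -1.15 ± 0.07 and -1.03 ± 0.06. CRYAB, a small heat shock protein, was lower in neurons by -2.13 ± 0.11 (SE, adjusted p = 1.27e-20, edgeR), and FKBP5, an HSP90 cochaperone and glucocorticoid target, by -2.35 ± 0.13 (adjusted p = 2.33e-16). The glial side of FKBP5 was uneven. Against the other glia it was higher in microglia by 2.43 ± 0.16 and lower in oligodendrocytes by -2.875 ± 0.20. HSPA12A, an HSP70 relative, was higher in neurons by 2.44 ± 0.08 (adjusted p = 1.54e-24). For the 17 genes of the HSP90 family and cochaperones this made 0 higher and 2 lower, for the 5 small heat shock proteins tested 0 higher and 3 lower, and for the 29 J-domain genes 0 higher and 1 lower, beside 14.1% of all genes higher and 10.1% lower.

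Between the animals FKBP5 ran against the chaperones. It was lower in the 18-month animal by -2.27 ± 0.12 in oligodendrocytes (SE, adjusted p = 3.36e-06, edgeR), -1.62 ± 0.25 in striatal projection neurons (adjusted p = 0.0029) and -1.26 ± 0.13 in astrocytes (adjusted p = 5.88e-07). CALR, a lectin chaperone of that compartment, was higher in the 18-month animal by 0.59 ± 0.12 in inhibitory neurons (adjusted p = 0.0027), 0.44 ± 0.09 in oligodendrocytes (adjusted p = 0.0081) and 0.40 ± 0.08 in excitatory neurons (adjusted p = 0.0232). Of the 17 unfolded protein response genes, 5 were higher and 0 lower in inhibitory neurons, 4 and 0 in excitatory neurons, and 3 and 0 in oligodendrocytes, where 3.81%, 6.49% and 7.34% of all genes were higher and 3.92%, 6.87% and 6.68% lower.

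Across 40 sums (8 classes in 5 libraries) the gene most like HSPA8 was HSP90AA1, with a Pearson r of 0.98 of log2(CPM + 1). After HSPA8, the genes most like HSP90AA1 were UBB (0.96) and COX7C (0.95). HSPA5 was most like CALR (0.92) and HSP90B1 (0.92), the endoplasmic reticulum HSP90. HSPH1 had lower values, the highest with a named gene being INO80C (0.74) and NSG2 (0.73). HSPD1 was most like RASSF8 (0.83), DNAJA1 like RPL38 (0.92), and DNAJB1 like HSPA8 (0.91). Next came HSPA8 (0.92) and RPS21 (0.92) for DNAJA1, and NDUFA4 (0.91) and JUND (0.91) for DNAJB1. These values carry no p, since the sums share libraries and depth.

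For HSP90AB1 and HSPE1 the files give no row of that name. One identifier, ENSMMUG00000022685, is named SLC29A1 in the files and HSP90AB1 in the reference name table, and SLC29A1 is the next protein-coding gene after HSP90AB1 in the RefSeq annotation. It gave 483, 514 and 394 CPM in endothelial nuclei of the 18-month animal, against 209 and 209 CPM in those of the 17-month animal, and 72.7, 65.003 and 66.2 CPM in excitatory neurons of the 18-month animal, against 72.6 and 64.6 CPM in those of the 17-month animal. The log2 fold change of ENSMMUG00000022685 was 2.00 ± 0.13 in low-UMI barcodes (SE, adjusted p = 1.03e-54, edgeR). Another identifier, ENSMMUG00000016547, is named MOB4 in the files and HSPE1 in the table, and MOB4 follows HSPE1 in RefSeq, with HSPD1 on its other side. Its level in excitatory neurons was 68.3, 57.6 and 68.2 CPM in the 18-month animal, against 57.6 and 52.3 CPM in the 17-month animal. These identifiers were looked up after the data were seen, and which gene each counts is uncertain.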

How the data were processed

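Single nuclei of 5 libraries were counted with droplet 3' chemistry. The deposited values are raw UMI counts per gene and barcode, written by Cell Ranger 5.0.1 per the file headers. The submitters' processing notes also name CASAVA 1.8, Seurat and the builds Mmul_10 and mm10. From these counts, nuclei with at least 500 genes were kept, 359 barcodes were removed for few genes and 2593 as likely doublets (scanpy 1.11.5, Scrublet). The 37053 nuclei were clustered on genes other than the chaperone lists, and clusters were named from marker genes. Counts were summed per library and class (at least 20 nuclei) and tested with edgeR 4.0.16 (quasi-likelihood, TMM, filterByExpr, Benjamini-Hochberg over all genes tested, R 4.3.3), with library as a block in comparisons of cell types. Genes used for clustering or naming were not tested there. DESeq2 1.42.0, other scalings, other filters, thinning and leaving out each library were alternatives. Intervals and floors were not used, and values per barcode carry the spread between libraries only.

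All 9 chaperones were named. Of each other list up to 3 called genes with the largest change, the same direction in each library and at least 20 CPM were named. For each chaperone, genes were named from the 3 most like it. The genes and lists were chosen with earlier results of these data known. Tests were checked on simulated counts.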

Additional observations from a re-analysis of the deposited data

How the results depend on the processing

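No called chaperone changed direction under any alternative; HSPD1 in striatal projection neurons, which passed only without the fold rule, changed sign after thinning (0.17). Of the log2 fold changes recomputed, 1774 kept their side of the threshold, 80 lost it and 36 gained it. The number of chaperones called moved as follows. Without a fold threshold it was 7 between neurons and glia, 6 for excitatory against inhibitory neurons, 6 for striatal projection neurons, 3 for oligodendrocytes, 4 for oligodendrocyte precursors, 2 for astrocytes, 3 for microglia, 5 for endothelial nuclei and 2 for claustrum-like neurons. On library totals, chosen after seeing the data, it was 3 between neurons and glia and 1 for the animals in excitatory neurons. Without neuron subclusters led by glial or vascular markers, also chosen after seeing the data, it was 1 between neurons and glia. With nuclei thinned to 1000 UMIs it was 1 for endothelial nuclei, and for the animals 0 in excitatory, 0 in inhibitory and 0 in striatal projection neurons and 1 in oligodendrocyte precursors. DESeq2 called 1 in inhibitory neurons, 0 in oligodendrocyte precursors and 0 in microglia between the animals. With likely doublets kept it was 1 in oligodendrocyte precursors, and with no filter on low counts 4 in microglia and 1 in endothelial nuclei. The cause was not tested.

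Leaving out 1 library at a time, the calls ran from 0 to 1 between neurons and glia, from 4 to 6 for low-UMI barcodes, and between the animals from 0 to 1 in astrocytes, 0 to 2 in endothelial nuclei, 0 to 3 in excitatory neurons, 2 to 4 in inhibitory neurons, 0 to 3 in microglia, 0 to 3 in oligodendrocyte precursors, 1 to 5 in oligodendrocytes and 0 to 3 in striatal projection neurons. Library numbers did not pair the animals, since deviations of same-numbered libraries correlated between -0.1956 and 0.2099 over 16 pairs. With the replicate block, 0 chaperones were called in oligodendrocyte precursors and 0 in microglia. Over all genes, the animal calls in excitatory neurons were 2099, and 476 after thinning and 1326 with the block. In inhibitory neurons they were 1008, and 65 after thinning and 342 by DESeq2. In oligodendrocytes they were 1854, and 1125 after thinning and 793 with the block. In striatal projection neurons they were 1302, and 152 after thinning, 792 by DESeq2 and 1990 with no filter. In oligodendrocyte precursors they were 566, and 221 after thinning, 187 by DESeq2 and 314 with the block. In astrocytes they were 517, and 259, 207 and 268 in the same order, and in microglia 708, and 420, 256 and 245, with 1269 under no filter. In endothelial nuclei they were 5, and 8 by DESeq2, 122 with no filter and 50 with the block. The difference of the animal effect had 678 genes, and 310 after thinning and 211 with the block. Claustrum-like neurons had 1194, and 563 after thinning, and the inhibitory types 566, and 225 after thinning. Excitatory against inhibitory neurons had 1294, and 1967 with no filter.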
